A study of Mus musculus with 50 samples.

Results

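Chemokines are small secreted proteins that direct the movement of leukocytes, and the genes described here are the mouse chemokines and the receptors that bind them. They were chosen by name from the gene column of the count files: every gene called Ccl, Cxcl, Ccr or Cxcr with a number, Ackr1 to Ackr4, and Cx3cl1, Cx3cr1, Xcl1, Xcr1, Pf4 and Ppbp. This gave 63 of 24984 genes, of which 41 are ligands and 22 are receptors. The ligands are 24 of the CC class, 15 of the CXC class and 2 of the CX3C and XC classes. The receptors are 10 for CC ligands, 6 for CXC ligands, 2 for CX3C and XC ligands and 4 atypical receptors.

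The names of the classes describe how the first cysteines of the ligand are spaced. A ligand binds a receptor of the matching class, a seven-transmembrane protein that signals through the inhibitory G protein Gi and turns the cell towards the source. Atypical receptors bind chemokines without that signal and take them up or present them. Inflammatory chemokines are induced through NF-kB, AP-1 or interferon signalling in resident cells and macrophages, while homeostatic ones such as Cxcl12 and Cxcl13 place stem cells and lymphocytes in their niches.

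The study sequenced RNA (38 libraries in 10 groups) and accessible chromatin by ATAC-seq (12 libraries in 4 groups) from kidney, liver and skin fibroblasts of C57BL/6 mice. Untreated kidney and liver came from young mice 2.5 months old and old mice 23 to 25 months old, female by the study's methods, with 4 RNA and 3 ATAC-seq libraries for each tissue and age. Further kidney and liver RNA came from mice 20 to 21 months old that received DMSO, the solvent used as the control, or 3C, with 4 libraries for each tissue and treatment. Skin fibroblasts labelled P9 received DMSO or 3C and gave 3 libraries each. The labels do not say what 3C or P9 stands for, at which dose or for how long 3C was given, or whether libraries of 1 group came from separate animals or cultures, so the p-values measure the spread between these libraries. The untreated libraries and those with DMSO or 3C carry different tallies of unassigned reads and were not compared with each other.

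Each RNA library held 14.24 to 43.7 M (mega) reads assigned to genes. The levels below are CPM, counts per mega reads after scaling by the trimmed mean of M values within each comparison, and values are listed in the order of the replicate numbers. Kidney markers (Slc34a1, Umod and 4 others) summed to 12050 to 17640 CPM in every kidney library, liver markers to 69830 to 205300 CPM in every liver library and fibroblast markers to 17360 to 23420 CPM in the fibroblasts. Old kidney replicate 2 stood apart, with liver markers at 3544 CPM against 177.5 to 309.4 CPM in the other 3 old kidney libraries. A gene was called higher or lower where the Benjamini-Hochberg adjusted p of edgeR's quasi-likelihood test over all genes tested was under 0.05 and the fold change was above 2 or below 0.5.

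The most abundant chemokines differed from tissue to tissue. To compare genes with each other, the mean level was divided by the exon length and is given here as CPM per kb. Ackr3, the atypical receptor that scavenges Cxcl12, had the highest level in young kidney at 22.37 CPM per kb, followed by Cxcl12 at 21.69, Cxcl14 at 20.91 and Cx3cl1 at 19.19. In old kidney the highest level was that of Ccl8, a ligand of Ccr8, at 41.33 CPM per kb, ahead of Cx3cl1 at 38.69 and Cxcl12 at 30.36. Cxcl12 led in all 4 liver groups, with 32.89 CPM per kb in young liver and 40.05 in old liver, and Ccl9 stood next to it in young liver at 30.87. In DMSO fibroblasts Ccl7 reached 732.4 and Ccl2 600.3 CPM per kb, far above any chemokine in the organs with DMSO or 3C. Cx3cl1, a membrane-bound ligand, led in DMSO kidney at 49.57 and in 3C kidney at 43.11 CPM per kb.

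**Figure D1:**
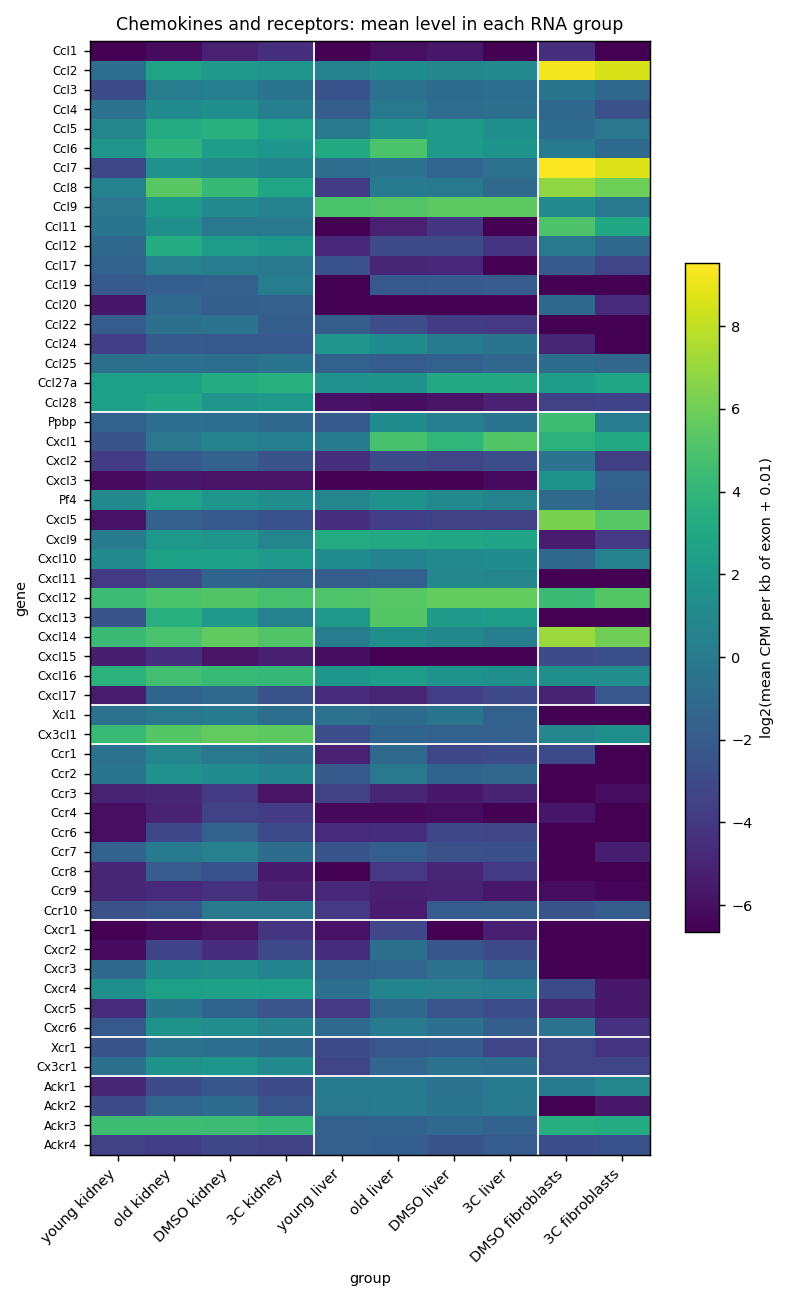
Level of 57 of the 58 members with a read in each of the 10 RNA groups, as log2 of the group mean in CPM per kb of exon plus a small constant, with the members ordered by role on the vertical axis and the groups on the horizontal axis. Ccl2 and Ccl7 are brightest in the 2 fibroblast groups, Ccl9 in the liver groups and Cx3cl1 and Ackr3 in the kidney groups.

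The lowest levels above 0 rest on a few reads, such as those of the receptors Cxcr2 in young kidney at 0.003687 and Ccr4 in young liver at 0.003332 CPM per kb and of the ligand Cxcl3 in 3C liver at 0.003621 CPM per kb. No read was assigned to 5 members in any library: Ccl21a, Ccl21b, Ccl21c, Ccl26 and Ccl27b. The Ccl21 and Ccl27 genes have near-identical copies, and reads that fit several copies are left out by the counting, so these genes are uncertain. Summed over all members, the level was 483.8 to 521.9 CPM in young kidney and 688.0 to 1118 CPM in old kidney, so the ages did not overlap. In liver it was 438.3 to 513.3 CPM in young and 519.8 to 866.1 CPM in old libraries.

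The comparison of old with young kidney asked which of these genes change with age. Of the 63 members, 5 had no read in these libraries, 23 were below the count filter and 35 were tested. In old kidney 21 were higher and 0 lower, where 5.68% of all 14495 genes tested were higher and 0.407% lower. The median log2 fold change of the 35 was 1.82, against 0.021 over all genes tested. A member that is expressed only in old kidney passes the filter through the old libraries alone, so the count over the tested members is a description. By role, 8 of 13 CC ligands, 4 of 9 CXC ligands, 4 of 4 CXC receptors and 2 of 2 CX3C and XC receptors were higher, as was Cx3cl1, the 1 ligand tested of the remaining class. Of the CC receptors Ccr2 was higher, and Ccr1 and Ccr7 did not pass the test. Old libraries lay above all young ones for 24 of the 35, against 10.9% of all genes tested. Neither of the 2 atypical receptors tested was called. In bulk tissue, more cells of a type and more RNA per cell cannot be told apart.

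Among the CC ligands, the largest increases were those of Ccl8, a ligand of Ccr8, and of Ccl12 and Ccl2, ligands of Ccr2. The 3 genes lie in 1 cluster on chromosome 11 (82035571 to 82305690, GRCm38), which holds Ccl2, Ccl7, Ccl11, Ccl12, Ccl8 and Ccl1. The receptor Ccr8 had 59 reads in all over the RNA libraries. The 250 bases upstream of the start of Ccl8 and Ccl12 are shown because they flank the members with the largest increases in this cluster. They are RefSeq promoters on GRCm38.p6, plus strand, at chr11:82114935-82115184 for Ccl8 and chr11:82101595-82101844 for Ccl12, written 5′ to 3′, and the capitals mark the TATAAA match of each.
Ccl8: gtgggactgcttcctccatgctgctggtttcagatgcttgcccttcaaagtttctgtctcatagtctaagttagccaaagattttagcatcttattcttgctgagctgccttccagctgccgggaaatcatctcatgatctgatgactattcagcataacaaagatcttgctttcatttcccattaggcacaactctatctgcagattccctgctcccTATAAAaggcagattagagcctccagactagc
Ccl12: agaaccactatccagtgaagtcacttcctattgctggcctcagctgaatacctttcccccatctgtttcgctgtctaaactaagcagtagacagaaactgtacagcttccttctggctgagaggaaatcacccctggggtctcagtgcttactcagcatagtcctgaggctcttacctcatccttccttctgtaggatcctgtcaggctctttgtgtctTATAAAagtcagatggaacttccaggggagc
The matches lie 32 to 27 bases upstream in Ccl8 and 31 to 26 bases upstream in Ccl12. Read on either strand, TATAAA was found in 13.0% of 27025 promoters of this length.

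Ccl8 stood at 0.533, 0.719, 1.0 and 0.479 CPM in the young libraries and at 7.31, 26.2, 13.7 and 37.3 CPM in the old ones. Every old library was above every young one, and the difference was 31.2-fold (log2 fold change 4.96 ± 0.54 SE, adjusted p = 0.000938). Ccl12, a ligand of the monocyte receptor Ccr2, stood at 0.533, 0.225, 0.0716 and 0.0599 CPM in young and 3.71, 4.9, 3.88 and 9.66 CPM in old kidney. It was 23.4-fold higher (log2 fold change 4.55 ± 0.59 SE, adjusted p = 0.00168), without overlap. Ccl2, the best known Ccr2 ligand, rose from 0.16, 1.26, 0.573 and 0.539 CPM to 3.81, 9.99, 3.74 and 12.4 CPM, which was 11.5-fold (adjusted p = 0.00523). Replicates 2 and 4 had the most Ccl2, Ccl8 and Ccl12 among the old libraries. Ccl7, also a Ccr2 ligand, had too few reads in young kidney for the filter: it stood at 0.16, 0.0449, 0.0716 and 0.0599 CPM in young and 0.457, 2.54, 2.46 and 3.65 CPM in old libraries, again without overlap. Ccl11, the eosinophil attractant eotaxin, was 3.53-fold higher with an adjusted p of 0.0437, the weakest of the calls. Ccr2 itself, the receptor of inflammatory monocytes, rose from 6.07, 3.28, 5.23 and 5.51 CPM to 13.2, 21.6, 13.8 and 29 CPM. That was 3.88-fold higher (log2 fold change 1.96 ± 0.30 SE, adjusted p = 0.00322), and every old library was above every young one. All 4 members of the chromosome 11 cluster that were tested were called, with a median log2 fold change of 4.04.

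A neighbouring cluster on chromosome 11 (83525778 to 83664683) holds Ccl5, Ccl9, Ccl6, Ccl3 and Ccl4, which attract macrophages, T cells and NK cells. Of these 5, 4 were higher in old kidney, with a median log2 fold change of 2.42. Ccl5 stood at 1.6, 0.584, 1.57 and 2.4 CPM in young and 7.31, 8.44, 9.28 and 12 CPM in old kidney and was 6.09-fold higher (log2 fold change 2.61 ± 0.37 SE, adjusted p = 0.00229). Ccl9, a ligand of Ccr1, rose from 2.77, 1.93, 3.22 and 2.16 CPM to 8.83, 13.9, 8.0 and 22.9 CPM. Ccl6, likewise a Ccr1 ligand, rose from 6.07, 5.84, 8.38 and 3.95 CPM to 15.7, 29.2, 16.1 and 37.8 CPM. The ages did not overlap for any of these 3 genes, and Ccl9 was 5.37-fold (adjusted p = 0.00283) and Ccl6 4.1-fold higher (adjusted p = 0.00444). Ccl3 was 8.86-fold higher, from at most 0.240 CPM in young to 0.558, 0.733, 0.615 and 1.62 CPM in old libraries, so its young level rests on a few reads. Ccl4 had a log2 fold change of 1.69 ± 0.57 SE and an adjusted p of 0.0826. The receptor Ccr1 did not pass the test (log2 fold change 1.36 ± 0.54 SE, adjusted p = 0.129).

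Among the CXC ligands the largest difference was that of Cxcl13, which draws B cells into follicles through its receptor Cxcr5. Cxcl13 stood at 0.0533, 0.135, 0.501 and 0.12 CPM in young and 5.13, 22.4, 7.62 and 17.2 CPM in old kidney. It was 68.8-fold higher (log2 fold change 6.10 ± 0.68 SE, adjusted p = 0.000979). Cxcr5 was 25.4-fold higher, from 0.0533, 0.0899, 0 and 0.24 CPM to 1.42, 6.05, 0.615 and 2.27 CPM. Replicate 2 had the most in the old group, and without it the log2 fold change of Cxcr5 went from 4.67 to 3.83 (adjusted p = 0.00895). Ccr7, the other lymphoid homing receptor tested, had a log2 fold change of 1.56 ± 0.48 SE (adjusted p = 0.0617). The interferon-induced ligand Cxcl9 rose from 3.89, 2.61, 2.43 and 3.23 CPM to 6.65, 9.25, 12.4 and 19.8 CPM, 3.96-fold (log2 fold change 1.98 ± 0.33 SE, adjusted p = 0.00517). Its neighbour Cxcl10 was 2.86-fold higher. Their receptor Cxcr3, carried by effector T cells, rose from 0.533, 0.629, 1.07 and 0.719 CPM to 3.81, 3.74, 2.13 and 5.98 CPM, which was 5.38-fold (log2 fold change 2.43 ± 0.38 SE, adjusted p = 0.00374). Old and young libraries did not overlap for any of these 5 called genes.

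Cxcr6, a receptor of resident T cells and NKT cells, stood at 0.426, 0.629, 0.429 and 0.12 CPM in young and 3.35, 6.71, 5.21 and 7.5 CPM in old kidney. It was 13.8-fold higher (log2 fold change 3.78 ± 0.43 SE, adjusted p = 0.00112). Its ligand Cxcl16 was already expressed in young kidney, at 35.1, 40.6, 40.8 and 44.6 CPM, and stood at 64.3, 67.5, 83.5 and 81.9 CPM in old kidney. Cxcl16 passed the adjusted p (0.00229) but, at 1.84-fold, not the fold limit, and 18.27% of its exon bases are shared with Zmynd15. Cx3cl1, which holds Cx3cr1-bearing monocytes at the vessel wall and the tubule, rose from 72.6, 77.5, 68.7 and 83 CPM to 141, 154, 120.2 and 193 CPM. With 2.02-fold (log2 fold change 1.01 ± 0.15 SE, adjusted p = 0.00255) it lay just past the fold limit. Its receptor Cx3cr1, found on monocytes and resident macrophages, was 5.25-fold higher, from 3.57, 3.24, 2.0 and 2.16 CPM to 8.02, 16.4, 4.5 and 28.9 CPM. Replicates 2 and 4 of the old group had the most Cx3cr1. Without replicate 4 its log2 fold change went from 2.39 to 1.80 (adjusted p = 0.0393).

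Cxcr4, the receptor of Cxcl12 on stem cells and most leukocytes, was 2.18-fold higher (adjusted p = 0.00664). Cxcl12 itself, at 193, 185, 149 and 182 CPM in young and 222, 305, 186 and 280.4 CPM in old kidney, overlapped between the ages (adjusted p = 0.0848). The other Cxcl12 receptor, Ackr3, stood at 77.1, 74.7, 90.2 and 57.6 CPM in young and 83.5, 82.8, 69.1 and 72.8 CPM in old kidney. Its log2 fold change was 0.04, with a 95% interval of -0.27 to 0.35. Xcr1, a receptor of cross-presenting dendritic cells, was 3.95-fold higher, while its ligand Xcl1 was below the filter. Pf4, which platelets and macrophages release, was 3.11-fold higher. Ppbp, another platelet chemokine, did not pass the test (log2 fold change 0.87 ± 0.83 SE, adjusted p = 0.507). Epithelial ligands of other receptors were not called either: Ccl28, Ccl25 and Ccl27a had adjusted p of 0.707, 0.854 and 0.897. Cxcl1, a neutrophil attractant, had a log2 fold change of 2.29 ± 0.74 SE (adjusted p = 0.0734).

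**Figure D2:**
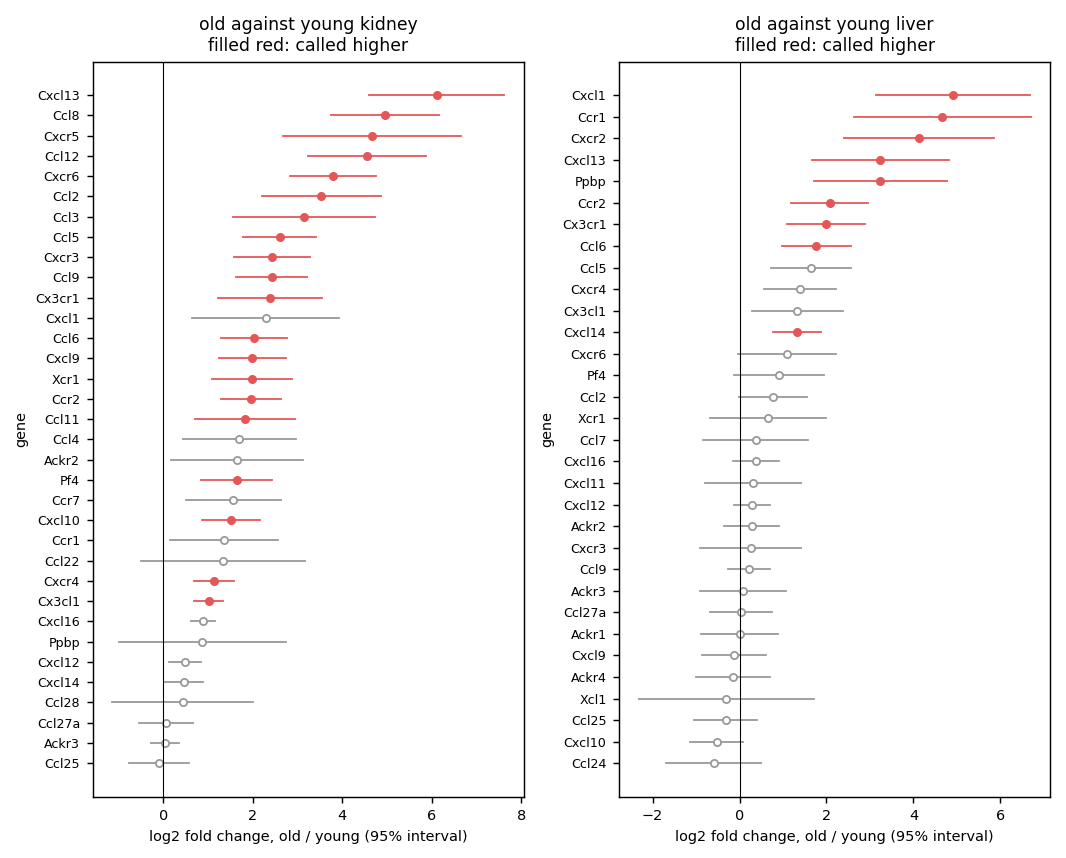
Log2 fold change of old against young for 34 of the 35 members tested in kidney and 32 of the 33 tested in liver, with 95% intervals, and filled red points for the members called. In kidney 33 of the 34 points lie above 0, with Cxcl13 and Ccl8 farthest to the right, and in liver 26 of the 32 lie above 0.

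Markers of leukocytes moved with these genes in kidney. The 10 macrophage markers summed to 186.3 to 209.9 CPM in young and 481.8 to 917.7 CPM in old kidney, and 9 of 10 were called higher, led by C1qa (6.87-fold), C1qc (5.73-fold) and C1qb (6.44-fold). The 10 T cell markers summed to 6.383 to 9.586 CPM in young and 32.89 to 47.66 CPM in old libraries, with 8 of 10 higher, led by Cd3g, Cd3d and Cd3e. The 7 B and plasma cell markers rose from 5.727 to 11.92 CPM to 354.9 to 523.9 CPM, with 6 of 7 higher, led by Jchain (64.3-fold), Cd79a and Mzb1. For neutrophils the sums were 0.1598 to 2.291 CPM in young, with Mpo at 0, and 4.472 to 20.18 CPM in old kidney, and both tested markers, S100a9 and S100a8, were higher. Dendritic cell markers summed to 5.441 to 11.55 CPM and 11.42 to 29.29 CPM, with 3 of 5 higher (Flt3, Clec9a and Itgax), and the 1 NK cell marker tested was not called. Platelet markers summed to 6.657 to 10.36 CPM in young and 9.446 to 14.86 CPM in old kidney, and 0 of 2 tested were called. Endothelial markers (0 of 7) and kidney markers (0 of 6) were not called, and of the fibroblast markers Thy1, which T cells also express, was (3.80-fold). The part of these cell types in the chemokine differences was not tested.

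Genes that act downstream of chemokine receptors also differed in part. Of 44 tested, 15 were higher in old kidney, with a median log2 fold change of 0.54. They included Rac2 (7.42-fold), the leukocyte Rac GTPase, its exchange factor Dock2 (7.44-fold) and Fermt3 (3.55-fold), which activates leukocyte integrins. Of the 7 tested cytokines and NF-kB subunits that induce chemokines, 4 were higher, among them Relb (2.82-fold), Ltb (8.30-fold) and Nfkb2 (2.03-fold). Without old kidney replicate 2, the library with liver markers, 21 members were still called, and they were the same 21. Without old kidney replicate 4, the count was 15, and Ccl11, Ccl3, Cx3cl1, Cxcr4 and Pf4 were among those that lost the call.

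**Figure D3:**
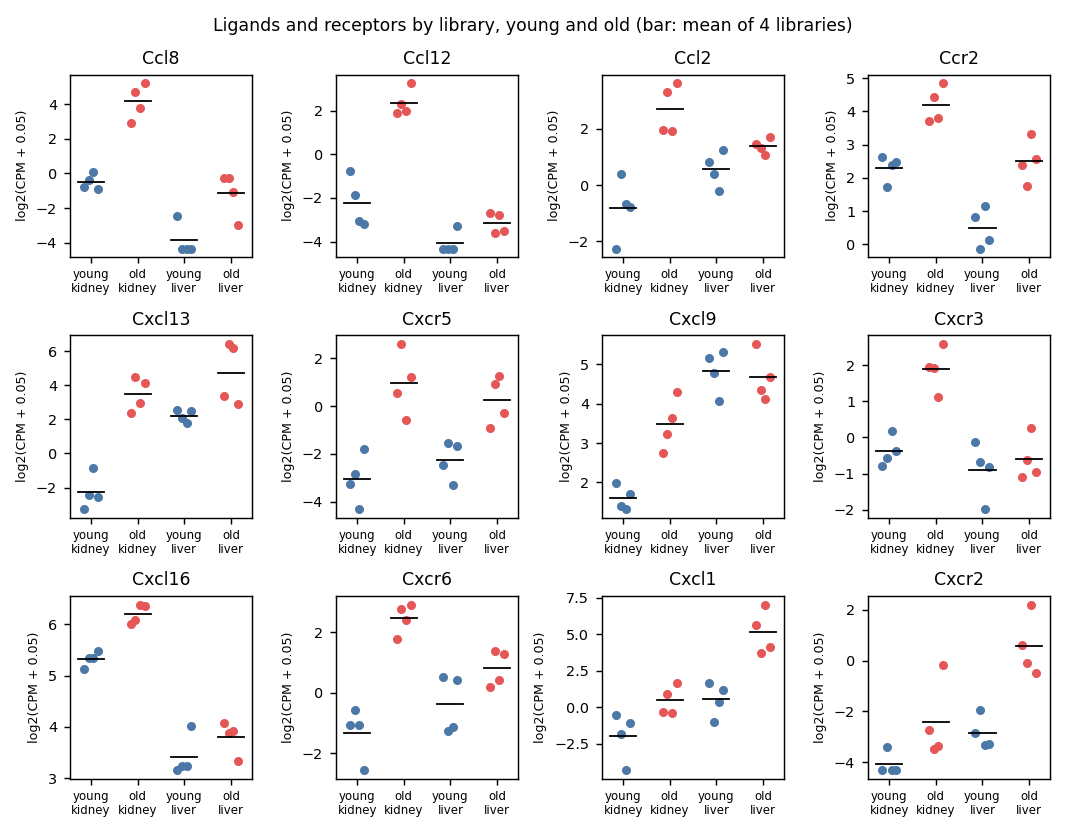
Level of 6 ligand and receptor sets by library in young and old kidney and liver, as log2(CPM + 0.05), with 1 point a library and a bar at the mean. Old kidney lies above young kidney without overlap for Ccl8, Ccl12, Ccl2, Ccr2, Cxcl13, Cxcr5, Cxcl9, Cxcr3, Cxcl16 and Cxcr6, and old liver above young liver for Cxcl1, Cxcr2, Ccr2 and Cxcl13.

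In liver the age comparison had 33 members tested, 7 without a read and 23 below the filter. In old liver 9 members were higher and 0 lower, where 1.69% of the 12537 genes tested were higher and 0.439% lower. The median log2 fold change was 0.66, against 0.003 over all genes tested. The 9 were 1 of 8 CC ligands, 4 of 10 CXC ligands, 2 of 3 CC receptors, 1 of 4 CXC receptors and Cx3cr1. None of the 4 atypical receptors was called. These calls depend on single libraries: the count was 1 without old liver replicate 3, 1 without young liver replicate 1 or 2, 0 without replicate 3 and 2 without replicate 4 of the young group. Old libraries lay above all young ones for 13 of the 33, against 6.05% of all genes tested.

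The largest difference was that of Cxcl1, which recruits neutrophils through Cxcr2. Cxcl1 stood at 3.15, 0.453, 1.26 and 2.19 CPM in young and 50.3, 12.8, 132 and 17.5 CPM in old liver. All old libraries were above the young ones, with replicates 3 and 1 highest, and the difference was 30.1-fold (log2 fold change 4.91 ± 0.81 SE, adjusted p = 0.0132). Ppbp, also a Cxcr2 ligand, rose from 0.306, 0.247, 0.302 and 0.156 CPM to 3.31, 1.25, 4.85 and 0.463 CPM, 9.44-fold (adjusted p = 0.037). The receptor Cxcr2, carried mainly by neutrophils, stood at 0.0874, 0.206, 0.0504 and 0.0521 CPM in young and 1.47, 0.891, 4.56 and 0.655 CPM in old liver. It was 17.4-fold higher (log2 fold change 4.12 ± 0.79 SE, adjusted p = 0.0247) and also highest in replicates 3 and 1. The neutrophil markers had the same order as Cxcr2: they summed to 0.7832 to 4.582 CPM in young liver and to 83.32, 13.76, 117.3 and 9.87 CPM in old liver. All 3 tested (S100a9, S100a8 and Retnlg) were higher. Their part in the levels of Cxcl1, Ppbp and Cxcr2 was not tested. Without old liver replicate 3 the log2 fold change of Cxcl1 was 3.93 (adjusted p = 0.0236), and those of Cxcr2 and Ppbp were 3.21 (adjusted p = 0.0507) and 2.67 (adjusted p = 0.113).

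Cxcl13 stood at 5.77, 4.12, 3.33 and 5.62 CPM in young and 10.4, 86.2, 73.8 and 7.52 CPM in old liver, so that replicates 2 and 3 were high and the other 2 slightly above the young libraries. It was 9.44-fold higher (log2 fold change 3.24 ± 0.71 SE, adjusted p = 0.0421). B and plasma cell markers summed to 4.064 to 5.571 CPM in young and 17.35 to 80.33 CPM in old liver, with 4 of 5 higher, led by Jchain (35.8-fold), Ms4a1 and Mzb1. The receptor Cxcr5 was below the filter. Cxcl14, a ligand made by resting epithelia and stroma, stood at 2.05, 1.98, 2.07 and 1.77 CPM and 4.04, 4.88, 6.62 and 4.09 CPM. It varied least among the 9 and was 2.49-fold higher (log2 fold change 1.32 ± 0.26 SE, adjusted p = 0.0255). Ccl6 rose from 15.4, 12.6, 17.7 and 18.1 CPM to 52.2, 58.4, 87 and 19.9 CPM, with replicate 4 near the young level, and was 3.41-fold higher (adjusted p = 0.0299).

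Among the receptors Ccr2 stood at 1.7, 0.866, 2.17 and 1.04 CPM in young and 5.2, 3.33, 10.03 and 5.86 CPM in old liver and was 4.21-fold higher (log2 fold change 2.08 ± 0.40 SE, adjusted p = 0.0255). Ccr1, a receptor of neutrophils and macrophages, had 4 reads in all in the young libraries. It stood at 0.736, 0.759, 3.12 and 0.733 CPM in the old libraries and was 25.4-fold higher (adjusted p = 0.0285), with replicate 3 far above the others. Without that library its log2 fold change went from 4.66 to 3.83 and the call was lost (adjusted p = 0.074). Cx3cr1 rose from 0.262, 0.577, 0.403 and 0.416 CPM to 1.68, 1.06, 1.87 and 2.08 CPM and was 3.97-fold higher (log2 fold change 1.99 ± 0.41 SE, adjusted p = 0.0319). Old and young libraries did not overlap for any of the 9 genes. Of the ligands of the called receptors, Cxcl1 and Ppbp for Cxcr2 and Ccl6 for Ccr1 were called. The others tested were not: Ccl2 had a log2 fold change of 0.77 (adjusted p = 0.35), Ccl7 of 0.38 (0.874), Ccl5 of 1.64 (0.0727), Ccl9 of 0.22 (0.768) and Cx3cl1 of 1.33 (0.193). Ccl3 and Ccl12 were below the filter. Macrophage markers summed to 348.8 to 537.3 CPM in young and 501.4 to 1010 CPM in old liver, and 2 of 10 were higher, Itgam (4.81-fold) and Cd68 (2.30-fold). T cell markers summed to 3.983 to 6.092 CPM and 9.310 to 13.24 CPM with 0 of 7 called, and dendritic cell markers overlapped (0 of 5 called). Of the endothelial markers Lyve1 was lower (2.43-fold, 1 of 7 called). The liver markers summed to 128300 to 205300 CPM in young and 73670 to 146000 CPM in old liver, with replicate 3 lowest among the old libraries. All 6 had a log2 fold change below 0 (median -0.47) and 0 were called, and Cyp2e1 did not overlap, at 5581 to 7938 CPM in young and 2862 to 4892 CPM in old liver. Of the signalling genes 5 of 44 were higher, among them Vav1 (2.79-fold), Jak3 (3.02-fold) and Rac2 (2.75-fold), which act in leukocytes, and 0 of 8 inducers were called.

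Both tissues called Ccl6, Ccr2, Cx3cr1 and Cxcl13 with age, which made up 19.0% of the 21 members called in kidney and 44.4% of the 9 called in liver. A call in 1 tissue does not show that the tissues differ, so the difference itself was tested as the interaction of age and tissue. Of 42 members tested, 4 differed at an adjusted p under 0.05, where 1.72% of the 15036 genes tested did. All 4 are ligands with a lower log2 fold change in liver than in kidney, and none of the 4 was called in liver. Ccl9 differed by -2.15 on the log2 scale (liver minus kidney, adjusted p = 0.0146). Against the 5.37-fold difference in kidney, Ccl9 in liver stood at 104, 91.5, 81.1 and 99.5 CPM in young and 157, 114, 86.8 and 80.7 CPM in old libraries. Ccl7 differed by -4.23 (adjusted p = 0.0292). Cxcl10 differed by -1.98 (adjusted p = 0.0209), and Cxcl9 by -2.06 (adjusted p = 0.0483).

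Cxcl9 and Cxcl10 lie next to each other on chromosome 5 (cluster from 92321347 to 92365485) and are both known as interferon-induced ligands of Cxcr3. Their upstream bases are shown because this pair differed between the tissues. They are RefSeq promoters on GRCm38.p6, minus strand, at chr5:92328080-92328329 for Cxcl9 and chr5:92348890-92349139 for Cxcl10. Capitals mark matches, on either strand, to an NF-kB site, the AP-1 site TGANTCA, the interferon regulatory factor (IRF) site GAAANNGAA or TATAAA.
Cxcl9: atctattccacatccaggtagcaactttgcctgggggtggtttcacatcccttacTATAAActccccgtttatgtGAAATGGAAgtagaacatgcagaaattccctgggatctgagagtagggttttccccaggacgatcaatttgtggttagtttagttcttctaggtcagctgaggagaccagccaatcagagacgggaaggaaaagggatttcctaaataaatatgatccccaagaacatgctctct
Cxcl10: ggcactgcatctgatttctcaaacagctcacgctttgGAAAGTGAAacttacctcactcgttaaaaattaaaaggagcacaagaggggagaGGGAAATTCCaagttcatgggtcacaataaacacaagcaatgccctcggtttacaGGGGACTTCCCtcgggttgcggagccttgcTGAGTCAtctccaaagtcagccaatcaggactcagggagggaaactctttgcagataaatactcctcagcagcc
In Cxcl9 the marked stretches are an IRF match 175 to 167 bases and TATAAA 195 to 190 bases upstream. In Cxcl10 they are an IRF match 213 to 205, NF-kB matches 159 to 150 and 104 to 94, and an AP-1 match 74 to 68 bases upstream. NF-kB matches on both strands can cover the same bases. Cxcl10 shares 5.91% of its exon bases with Art3.

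Cxcl10 stood at 5.38, 5.12, 2.51 and 5.15 CPM in young and 9.04, 15.2, 10.4 and 17.5 CPM in old kidney, without overlap. In liver it stood at 5.99, 4.16, 5.14 and 5.16 CPM in young and 4.2, 4.03, 1.97 and 4.01 CPM in old libraries, so the old libraries were not above the young ones. Cxcl9 in liver was 35.7, 27.2, 16.8 and 39.5 CPM in young and 46, 20.4, 17.2 and 25.6 CPM in old libraries and overlapped, while it was higher in every old kidney library. The receptor Cxcr3 had a log2 fold change of 0.26 in liver (adjusted p = 0.928) and 2.43 in kidney, and its own difference did not pass the test (-2.12, adjusted p = 0.112). Ccl2 and Cxcr6 came close, with differences of -2.69 (adjusted p = 0.0644) and -2.63 (adjusted p = 0.0737). For Cxcl1, called in liver alone, the difference was 2.65 with an adjusted p of 0.387, so a difference between the tissues was not shown.

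ATAC-seq peaks, regions of open chromatin called in each library by the authors, were counted where they overlapped 1 kb on either side of a transcription start site. Of 62 members with an annotated start site, 26, 23 and 20 had a promoter peak in the young kidney libraries and 27, 28 and 27 in the old ones. That is 23.0 ± 3.0 against 27.3 ± 0.577 members (SD, n = 3 each). All old libraries had more, and the exact two-sided permutation p of 0.1 is the smallest that 3 against 3 libraries allow. Over all annotated genes the share with a promoter peak was 63.6, 64.6 and 63.4% in young and 61.8, 61.4 and 62.9% in old kidney, so it was lower in every old library. With peaks of a −log10 q of at least 5 the difference was 0.0 (exact permutation p = 1.0). A peak in every old and no young kidney library was found for 1 member, Ccl12, with fold enrichments of 2.92, 3.08 and 4.76 in the old libraries, where 0.175% of the 24534 annotated genes gained a peak in this way. No member lost one, where 0.428% of genes did. With a −log10 q of at least 5 a peak was gained by 0 members, where 34 of 24534 genes gained one. The gain of Ccl12 therefore did not hold at this cut. Over all deposited peaks, Ccl12 had both more RNA and a promoter peak in old kidney. In its cluster Ccl2 had a peak in all 6 kidney libraries, Ccl7 in 2 old ones and Ccl8 in none. Cxcl13 on chromosome 5 had none either. Cx3cl1 had peaks in all 6, with fold enrichments of 7.62, 7.87 and 5.67 in young and 7.31, 7.26 and 6.39 in old kidney, which overlap. Its receptor Cx3cr1, with more RNA in old kidney, had a peak in 3 young libraries (2.22, 3.56 and 3.78) and in 1 old library (3.85).

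In liver 26, 24 and 25 members had a promoter peak in young and 37, 24 and 29 in old libraries (25.0 ± 1.0 against 30 ± 6.56, SD, n = 3 each, exact permutation p = 0.4). The share over all genes was 58.8, 60.0 and 60.0% in young and 61.3, 58.2 and 59.7% in old liver. Old liver replicate 1, with the 37 members, also had the most peaks and the highest share of genes. The gained member was Cxcl17, a mucosal ligand, with fold enrichments of 3.36, 3.2 and 2.72, where 0.269% of genes gained and 0.334% lost a peak. No member lost one. With a −log10 q of at least 5 a peak was gained by 0 members, where 83 of 24534 genes gained one. Cxcl17 had 96 reads in all over the RNA libraries. Ccl25, chosen after its values were seen, had the largest separation of peak heights, with fold enrichments of 6.10, 6.51 and 6.52 in young and 12.3, 11.9 and 13.0 in old kidney. In liver its peaks were 3.18, 3.49 and 2.66 in young and 5.55, 4.45 and 4.78 in old libraries. The start region of Ccl25 overlaps Elavl1, which shares 2.74% of the Ccl25 exon bases, and the RNA of Ccl25 was not called in either tissue.

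To see how 3C acts on chemokine expression in cultured cells, fibroblasts with 3C were compared with DMSO. Of the 63 members, 24 were tested, 16 had no read and 23 were below the filter. With 3C 7 members were lower and 0 higher, where 0.632% of the 13449 genes tested were lower and 1.23% higher. The median log2 fold change was -0.75, against 0.007 over all genes tested. Of the 7, 3 (Ppbp, Cxcl2 and Cxcl3) are ligands of the neutrophil receptor Cxcr2 in the chromosome 5 cluster from 90759360 to 90905938, which holds Cxcl5, Ppbp, Pf4, Cxcl3, Cxcl15, Cxcl1 and Cxcl2. The 250 bases upstream of 4 of them are shown because all 4 had less RNA with 3C, Cxcl1 below the fold limit. Cxcl5 also had less RNA with 3C, but its promoter was not among those at hand. They are RefSeq promoters on GRCm38.p6, plus strand, at chr5:90890995-90891244 for Cxcl1, chr5:90903649-90903898 for Cxcl2, chr5:90785851-90786100 for Cxcl3 and chr5:90768268-90768517 for Ppbp, with capitals for the same matches as above.
Cxcl1: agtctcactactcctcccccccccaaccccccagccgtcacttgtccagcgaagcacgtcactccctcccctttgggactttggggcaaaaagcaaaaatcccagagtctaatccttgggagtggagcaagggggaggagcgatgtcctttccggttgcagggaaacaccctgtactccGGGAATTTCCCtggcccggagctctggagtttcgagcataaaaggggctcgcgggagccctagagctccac
Cxcl2: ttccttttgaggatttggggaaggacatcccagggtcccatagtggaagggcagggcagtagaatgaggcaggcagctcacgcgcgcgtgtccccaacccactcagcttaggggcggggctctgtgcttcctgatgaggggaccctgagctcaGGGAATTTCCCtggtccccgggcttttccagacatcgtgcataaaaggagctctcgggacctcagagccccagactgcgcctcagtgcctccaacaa
Cxcl3: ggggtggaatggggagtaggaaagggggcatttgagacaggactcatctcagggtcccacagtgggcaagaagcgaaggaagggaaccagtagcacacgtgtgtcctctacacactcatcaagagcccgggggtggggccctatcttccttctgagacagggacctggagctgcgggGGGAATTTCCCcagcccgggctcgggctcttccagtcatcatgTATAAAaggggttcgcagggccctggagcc
Ppbp: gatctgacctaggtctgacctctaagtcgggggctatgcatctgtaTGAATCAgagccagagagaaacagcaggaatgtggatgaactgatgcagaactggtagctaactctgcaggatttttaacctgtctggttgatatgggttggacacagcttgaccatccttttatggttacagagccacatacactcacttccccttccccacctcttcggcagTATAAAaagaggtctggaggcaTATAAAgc
Cxcl1, Cxcl2 and Cxcl3 each hold NF-kB matches on both strands, shifted by 1 base, which together span 71 to 61, 97 to 87 and 73 to 63 bases upstream, while Ppbp holds none in this window and has an AP-1 match 204 to 198 bases upstream. Over all members, an NF-kB match was found in 10 of the 47 promoters at hand (21.3%), against 7.01% of 27025 promoters. The AP-1 match was found in 10.6% against 6.87%, the IRF match in 17.0% against 7.16%, TATAAA in 27.7% against 13.0%, and the ETS match GAGGAAGT, searched on both strands, in 4.26% against 2.44%.

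Ppbp stood at 26.9, 20.4 and 26.1 CPM with DMSO and at 1.35, 1.09 and 1.17 CPM with 3C. It was 20.3-fold lower (log2 fold change -4.34 ± 0.20 SE, adjusted p = 3.88e-06), the strongest difference of any member between treatments. Cxcl3 fell from 13.8, 7.5 and 12.2 CPM to 1.29, 0.866 and 1.36 CPM and was 9.58-fold lower (log2 fold change -3.26 ± 0.30 SE, adjusted p = 0.00055). Cxcl2 stood at 1.85, 1.3 and 1.14 CPM and 0.225, 0.0911 and 0.13 CPM and was 9.51-fold lower (log2 fold change -3.25 ± 0.51 SE, adjusted p = 0.0065). Their neighbours Cxcl5 and Cxcl1 differed by less than 2-fold. Cxcl5 stood at 158, 122 and 148 CPM with DMSO and 81.1, 62.8 and 78 CPM with 3C and passed the adjusted p (0.00542) at 1.93-fold lower. Cxcl1 stood at 23.6, 29.3 and 23 CPM and 17.5, 16.5 and 17 CPM and passed it at 1.49-fold lower (adjusted p = 0.0454). These 5 Cxcr2 ligands were lower in every 3C library than in any DMSO library, as were 13 of the 24 members tested and 12.5% of all genes tested. Their receptor Cxcr2 had no read in the fibroblasts.

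Ccl11 stood at 38.2, 29.9 and 38.1 CPM with DMSO and 9.44, 5.56 and 10.2 CPM with 3C. It was 4.25-fold lower (log2 fold change -2.09 ± 0.21 SE, adjusted p = 0.000832). Cxcl14 stood at 203, 303 and 241 CPM and 90.5, 134 and 131 CPM and was 2.11-fold lower (log2 fold change -1.07 ± 0.18 SE, adjusted p = 0.0108), close to the fold limit. Ccl9 stood at 6.97, 6.54 and 5.68 CPM and 1.74, 2.23 and 3.89 CPM and was 2.47-fold lower (log2 fold change -1.30 ± 0.28 SE, adjusted p = 0.031). The 1 receptor among the calls was Cxcr6, which stood at 1.72, 1.22 and 1.07 CPM with DMSO and 0.112, 0 and 0.13 CPM with 3C. It was 17-fold lower (log2 fold change -4.08 ± 0.66 SE, adjusted p = 0.00787), on 85 reads against 4. Its ligand Cxcl16 had a log2 fold change of -0.14, with a 95% interval of -0.71 to 0.44. The T cell markers summed to at most 0.8798 CPM in any fibroblast library, with Cd3d, Cd3g and Cd8a at 0 in both groups.

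Ccl2, Ccl7 and Ccl8, which are abundant in the fibroblasts, were not called. Ccl2 stood at 945, 474 and 629.8 CPM with DMSO and 571, 228 and 457 CPM with 3C, and the groups overlapped (adjusted p = 0.243). Ccl7 stood at 742, 430.4 and 587 CPM and 404, 206 and 386 CPM, with a log2 fold change of -0.82 ± 0.26 SE (adjusted p = 0.101). Ccl8 had a log2 fold change of -0.86 ± 0.22 SE (adjusted p = 0.0572). In each group replicate 2 had the least of all 3 genes. In the other direction, Cxcl12 stood at 143, 186 and 183 CPM with DMSO and 252, 389 and 300.3 CPM with 3C. It passed the adjusted p (0.0197) at 1.84-fold higher, below the fold limit. Cxcl10 was higher in every 3C library (5.84, 1.64 and 1.62 CPM against 1.46, 0.712 and 0.568 CPM) but did not pass edgeR's test (log2 fold change 1.70 ± 0.56 SE, adjusted p = 0.114). DESeq2 did call Cxcl10. Of the 7 inducers tested 0 were called. Macrophage markers summed to 86.55 to 105.9 CPM with DMSO and 50.40 to 73.68 CPM with 3C, without overlap, and 0 of 9 tested were called. Fibroblast markers overlapped at 17360 to 23420 CPM and 18060 to 23270 CPM (0 of 6 called). Of the endothelial markers Tek was higher (2.07-fold), and of the liver markers Alb, at most 3.153 CPM in any library, was lower. The part of macrophages in the chemokine differences was not tested.

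**Figure D4:**
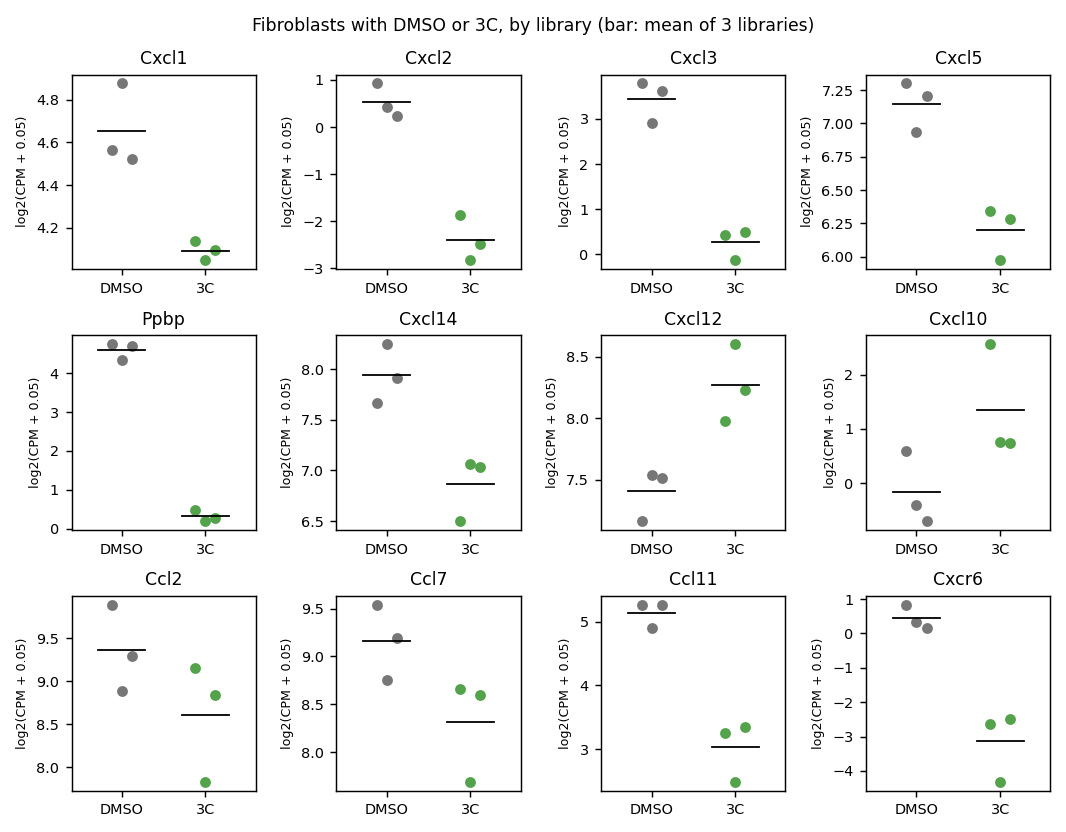
Level of 12 members by library in fibroblasts with DMSO or 3C, as log2(CPM + 0.05), with 1 point a library and a bar at the mean. The 3C libraries lie below the DMSO libraries without overlap for Cxcl1, Cxcl2, Cxcl3, Cxcl5, Ppbp, Cxcl14, Ccl7, Ccl11 and Cxcr6, above them for Cxcl12 and Cxcl10, and overlap them for Ccl2.

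In the kidney of old mice, 3C was compared with DMSO for 37 members, after 5 without a read and 21 below the filter. None was called in either direction, where 0.0% of the 14974 genes tested were higher and 0.0% lower. The members leaned to lower values nonetheless: 32 of 37 (86.5%) had a log2 fold change below 0, against 48.6% of all genes tested, with a median of -0.46 against 0.004. At an unadjusted p under 0.05 there were 17 members, 16 lower and 1 higher (Ccl27a), against 1786 of all genes (1062 lower and 724 higher), and DESeq2 called 0 members. The smallest adjusted p was that of Cxcl12, which stood at 323, 287, 285 and 272 CPM with DMSO and 196, 228, 238 and 256 CPM with 3C. All 3C libraries were below the DMSO libraries (log2 fold change -0.35 ± 0.09 SE, adjusted p = 0.208). The same held for Cxcr3, at 3.92, 4.26, 5.58 and 3.39 CPM and 2.26, 3.22, 2.94 and 2.5 CPM (log2 fold change -0.65, adjusted p = 0.268), and for Ccl22, Ackr2 and Ccl4, so for 5 of the 37, against 3.84% of all genes tested. Cx3cr1 was close, at 13.8, 21, 17.8 and 13.5 CPM with DMSO and 7.6, 13.5, 7.92 and 9.94 CPM with 3C (log2 fold change -0.75 ± 0.20 SE, adjusted p = 0.224).

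DMSO kidney replicate 3 stood above the other libraries of its group for several of these genes. Ccl5 stood at 6.17, 7.38, 25.1 and 8.4 CPM in the 4 DMSO libraries, Cxcl9 at 4.17, 4.81, 23 and 9.95 CPM, Cxcl13 at 2.06, 2.1, 11.1 and 3.74 CPM and Ccl8 at 4.47, 5.14, 17 and 10.2 CPM. In the same library T cell markers summed to 70.18 CPM (29.36 to 38.31 in the other 3) and B and plasma cell markers to 397.9 CPM (106.5 to 128.3). Without this library 33 of the 37 members were still below 0, with a median of -0.42, but 9 rather than 16 were lower at an unadjusted p under 0.05. The log2 fold change of Ccl5 went from -0.95 to -0.26, of Cxcl9 from -1.07 to -0.34, of Cxcl13 from -1.55 to -0.70 and of Ccl8 from -1.31 to -0.83, while Cxcl12 (-0.35) and Cx3cr1 (-0.71) stayed near their values. Macrophage markers summed to 526.9 to 569.5 CPM with DMSO and 381.5 to 527.5 CPM with 3C, and fibroblast markers to 481.8 to 636.2 CPM and 250.1 to 427.1 CPM, the latter without overlap, and none of the 10 and 6 markers was called. Dendritic cell markers summed to 26.5 to 31.17 CPM with DMSO and 21.5 to 26.19 CPM with 3C, also without overlap (0 of 5 called). The log2 fold change was below 0 for all 10 T cell and all 7 B and plasma cell markers, with medians of -0.70 and -1.05, and none was called. Their sums overlapped, at 21.22 to 34.49 CPM for T cells and 118.6 to 203.0 CPM for B and plasma cells with 3C. The part of these cells in the lower chemokine levels was not tested. None of the 44 signalling genes or 8 inducers tested was called.

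**Figure D5:**
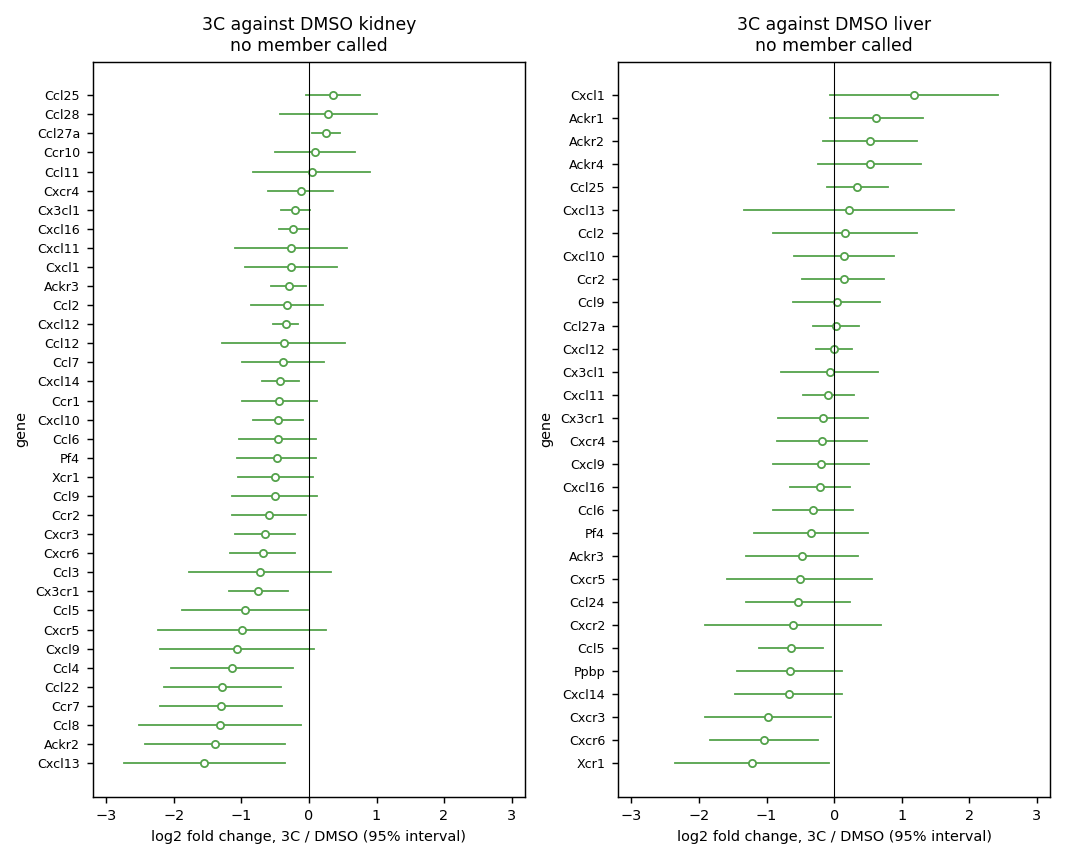
Log2 fold change of 3C against DMSO for 36 of the 37 members tested in kidney and 30 of the 31 tested in liver of old mice, with 95% intervals. No member is called in either tissue, and 31 of the 36 kidney points and 19 of the 30 liver points lie below 0.

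In the liver of old mice 31 members were tested with 3C, 7 had no read and 25 were below the filter. None was called, where 0.0% of the 13042 genes were higher and 0.0% lower, and every member's adjusted p was 1.0. The median log2 fold change was -0.19, against -0.001 over all genes tested. Of the members 11 were above 0 and 20 (64.5%) below 0, against 50.3% of all genes tested below 0. At an unadjusted p under 0.05 there were 4, all lower: Ccl5 (-0.64 on the log2 scale), Cxcr3 (-0.97), Cxcr6 (-1.04) and Xcr1 (-1.22). Over all genes there were 436 (187 lower and 249 higher), and DESeq2 called 0 members. T cell markers summed to 9.064 to 13.20 CPM with DMSO and 6.174 to 7.024 CPM with 3C, without overlap (0 of 8 called). Cxcl1 stood at 10.4, 41.5, 47.1 and 19.3 CPM with DMSO and 69.1, 46.3, 16.9 and 136 CPM with 3C (log2 fold change 1.18, 95% interval -0.06 to 2.43). A difference between the tissues in the effect of 3C passed edgeR's test for 0 of 43 members, where 0.0% of 15526 genes passed it. DESeq2 also gave 0. An unadjusted p under 0.05 was found for 2 members, and this count was not taken over all genes.

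Kidney and liver of the same age and treatment group were compared to show which members mark each tissue. In young mice 30 members were tested, and 7 were higher and 14 lower in kidney, where 25.7% of the 14057 genes tested were higher and 16.9% lower. In mice with DMSO 42 were tested, and 17 were higher and 10 lower in kidney, where 26.6% of the 14981 genes were higher and 15.7% lower. These comparisons rest on different libraries and ages.

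Among the CC ligands Ccl9 was the clearest liver gene, at 1.9, 1.31, 2.17 and 1.45 CPM in young kidney and 149, 129, 116 and 142 CPM in young liver. It was 78.8-fold lower in kidney (log2 fold change -6.30 ± 0.20 SE, adjusted p = 1.14e-10), and 42.4-fold lower with DMSO (adjusted p = 2.53e-08). Ccl24, an eosinophil attractant of macrophages, stood at 0.0366, 0.0306, 0.0483 and 0.121 CPM and 7.77, 5.42, 2.44 and 10.1 CPM and was 102-fold lower in young kidney (adjusted p = 8.99e-07) and 9.55-fold lower with DMSO (adjusted p = 1.96e-05). Ccl6 stood at 4.17, 3.98, 5.66 and 2.67 CPM in young kidney and 22.1, 17.9, 25.2 and 25.8 CPM in young liver, 5.53-fold lower (adjusted p = 1.43e-06). Ccl28, a mucosal epithelial ligand, was the reverse, at 4.17, 14.6, 49.6 and 10.9 CPM in young kidney against 3 reads over the 4 young livers. The ratio of its depth-scaled reads was 361 (exact 95% counting interval 123 to 1750), and with DMSO, also against 3 reads, it was 206 (70.4 to 1000). The intervals cover counting error only.

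Among the CXC ligands Cxcl12 was 3.18-fold lower in young kidney (adjusted p = 1.76e-06), with 133, 126, 101 and 123 CPM in kidney and 312, 359, 470.5 and 392 CPM in liver. With DMSO it was 2.85-fold lower (adjusted p = 9.78e-08), with 234, 205, 203 and 194 CPM in kidney and 651, 564, 613 and 553 CPM in liver. Cxcl14 was higher in kidney, at 22.6, 24.6, 22.4 and 34.1 CPM against 2.94, 2.8, 2.95 and 2.52 CPM in young mice (9.22-fold, adjusted p = 2.58e-08) and 12.4-fold with DMSO (adjusted p = 4.67e-08). Cxcl9 stood at 2.67, 1.77, 1.64 and 2.18 CPM in young kidney and 51.2, 38.5, 23.9 and 56.3 CPM in young liver, 20.4-fold lower (adjusted p = 6.03e-08). Cxcl13 stood at 0.0366, 0.0918, 0.338 and 0.0808 CPM and 8.27, 5.83, 4.75 and 8.02 CPM, 50.9-fold lower (adjusted p = 5.40e-07), and with DMSO it was not called. Cxcl1 stood at 3.12, 1.41, 1.64 and 1.85 CPM in DMSO kidney and 14.8, 58.7, 68 and 27.4 CPM in DMSO liver, 20.6-fold lower (adjusted p = 4.40e-06), and was 10.9-fold lower in young kidney. Cxcl11, at 0.508, 1.31, 0.843 and 1.28 CPM in DMSO kidney and 8.2, 10.02, 10.3 and 9.56 CPM in DMSO liver, was 9.74-fold lower (adjusted p = 4.03e-07) and 10.1-fold lower in young kidney. Cxcl16 was higher in DMSO kidney, at 35.8, 48.2, 42.8 and 47.5 CPM against 15.2, 14.1, 11.7 and 10.6 CPM (3.37-fold, adjusted p = 2.90e-07).

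Cx3cl1 was the clearest kidney gene, at 49.9, 52.7, 46.4 and 56 CPM in young kidney and 1.06, 0.408, 1.29 and 0.371 CPM in young liver. It was 65.2-fold higher in young kidney (log2 fold change 6.03 ± 0.29 SE, adjusted p = 3.55e-09) and 79.8-fold higher with DMSO (adjusted p = 5.22e-12). Ackr3 followed, at 52.9, 50.8, 60.9 and 38.9 CPM and 1.63, 0.933, 2.16 and 0.965 CPM, with 35.9-fold in young kidney (adjusted p = 5.70e-09) and 23.4-fold with DMSO (adjusted p = 2.11e-10). The other 3 atypical receptors were lower in kidney in both comparisons. Ackr2, a scavenger of inflammatory CC ligands, stood at 0.329, 0.306, 0.0483 and 0.323 CPM in young kidney and 4.38, 4.43, 2.23 and 4.38 CPM in young liver, 14.5-fold lower (adjusted p = 9.87e-06) and 2.92-fold lower with DMSO. Ackr1, which shares 25.69% of its exon bases with Cadm3, had 2 reads in young kidney against 2.44, 1.4, 1.44 and 2.45 CPM in young liver, a ratio of 101 (exact 95% counting interval 27.4 to 845) in favour of liver, and was 7.18-fold lower in DMSO kidney. Ackr4, a scavenger of Ccl21 and Ccl25, was 7.71-fold lower in young and 3.47-fold lower in DMSO kidney. Ccr2 was 3.26-fold higher in DMSO kidney, at 7.52, 12.9, 11.4 and 13.2 CPM against 5.13, 2.94, 2.44 and 3.21 CPM in DMSO liver (adjusted p = 7.51e-05).

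Further calls are given by fold change. In young mice kidney was higher for Ccr1 (17.8-fold), Cx3cr1 (3.14-fold) and Cxcr4 (2.15-fold), and lower for Ccl2 (4.92-fold) and Cxcl10 (2.34-fold). With DMSO it was higher for Ccl12 (18.3-fold), Ccl8 (9.79-fold), Ccl11 (8.43-fold), Ccl22 (5.28-fold), Ccr1 (4.49-fold), Ccr7 (4.08-fold), Cx3cr1 (2.83-fold), Ccl7 (2.71-fold), Ccl4 (2.5-fold), Cxcr4 (2.14-fold) and Cxcr6 (2.01-fold). With DMSO it was lower for Cxcl9 (4.49-fold) and Ppbp (3.97-fold). Without DMSO kidney replicate 3, the library with high T and B cell markers, 15 members were higher and 11 lower. Ccl4 (log2 fold change 0.742, adjusted p = 0.0839) and Cxcr6 (0.988, under the fold limit) then lost the call, and Cxcl13 gained one as lower in kidney (from -1.07 to -1.91, adjusted p = 0.022). Cxcl9 went from -2.17 to -2.89 and Ackr2 from -1.55 to -2.20. Macrophage markers were lower in young kidney (8 of 10 called, led by Adgre1 at 12.4-fold lower), and with DMSO 2 of 10 were higher and 1 lower. The neutrophil markers summed to 1.036 to 4.065 CPM in DMSO kidney and 5.655 to 26.79 CPM in DMSO liver, and all 3 tested were lower in kidney, led by Retnlg (11.1-fold). T cell markers summed to 29.36 to 70.18 CPM in DMSO kidney and 9.064 to 13.20 CPM in DMSO liver, with 4 of 10 higher, led by Cd8b1. With DMSO 2 of 7 B and plasma cell markers, 4 of 6 fibroblast markers, 3 of 7 endothelial markers and the 1 NK cell marker tested were higher in kidney, and 1 fibroblast marker (Dcn) and 2 endothelial markers were lower. In young kidney 1 of 7 T cell markers was higher and 2 lower, 1 of 3 B and plasma cell markers higher and 2 lower, 1 of 2 neutrophil markers lower, and 3 of 6 fibroblast markers higher and 1 lower. The 1 NK cell marker tested there (Klrb1c, 4.62-fold) was lower in young kidney, and of 7 endothelial markers 1 was higher and 2 were lower. No dendritic cell or platelet marker was called in either comparison. The part of these cells in the differences between tissues was not tested. Of the signalling genes 6 of 43 were higher and 15 lower in young kidney, led by Rgs16 (lower), Gnai1 (41.6-fold higher), a subunit of Gi, and Lyn (3.13-fold lower), and with DMSO 6 of 44 were higher and 4 lower, led by Gnai1 (49.0-fold), Arrb1 (4.35-fold) and Vav3 (16.6-fold). Of the inducers Il1a (70.2-fold) and Il1b (5.92-fold) were lower and Il33 (3.08-fold) was higher in young kidney, and with DMSO Il1a was lower (20.1-fold) and Il33 (3.40-fold) and Relb (2.52-fold) higher.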

How the data were processed

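The 38 RNA-seq and 12 ATAC-seq libraries were grouped by the sample labels. The submitters' processing notes and the study's methods name Trimmomatic 0.39 for trimming, HISAT2 2.2.1 for alignment to mm10 and HTSeq 0.12.4, which the authors ran without strand, so overlapping genes on opposite strands cannot be told apart. The deposited values are raw counts of 24984 genes. For ATAC-seq the authors used Bowtie2 2.3.5.1 and called peaks per library with MACS2, and each deposited peak carries a fold enrichment, which is a ratio, and its −log10 p and q.

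Depth was 14.24 to 43.7 M (mega) counts per RNA library. Counts were tested with edgeR 4.0.16 in R 4.3.3 (quasi-likelihood F test, TMM, filterByExpr with a minimum count of 10, Benjamini-Hochberg over all genes tested), each comparison on its own groups and the interactions on 4 groups, without covariates, and 95% intervals use the t distribution at its degrees of freedom. The biological variation between replicates (edgeR's common coefficient) was 0.237 in kidney and 0.292 in liver with age, and 0.153, 0.12 and 0.221 in fibroblasts, kidney and liver with 3C. On simulated data 193 of 200 genes changed 4-fold were recovered for the kidney age comparison over 14717 genes. The 54 replicate pairs differed by more than counting noise (lowest chi-square per degree of freedom 8.122). Promoter peaks overlapped 1 kb on either side of a GENCODE vM21 start site by at least 1 bp and were compared by an exact permutation test over libraries (scipy 1.17.1). All peaks lay within the 21 GRCm38 chromosomes.

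Promoter sequences came from RefSeq (GRCm38.p6, 250 upstream bases), which held 47 members. Alternatives were DESeq2 1.42.0, other scaling and filters, a replicate block, a covariate for reads outside genes and leaving out each library. Same-numbered young kidney and young liver libraries deviated together (correlations 0.143 to 0.552), as in all 4 pairs, and blocking on the number changed none of the 21 calls there. Members called were named in order of p, the first 12 with their libraries, then ligand and receptor partners, the genes with the highest and lowest level per kb, and the first 3 called genes of each accompanying list. The members, lists and naming rule were chosen with earlier results of these data known. Values of 1 member and of 1 signalling gene are not reported here, and the counts and medians over members include that member.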

Additional observations from a re-analysis of the deposited data

Results flagged for a closer look

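Of 60 groups of 4 libraries checked for the members called with age, 3 had a library apart from the others, and chance alone puts about 1 in 20 groups apart. Ccl3 in old kidney stood at 1.62 CPM in replicate 4, against 0.558 to 0.733 CPM in the other 3. Cxcl10 in young kidney stood at 2.51 CPM in replicate 3, against 5.12 to 5.38 CPM in the others. Ccr1 in old liver stood at 3.12 CPM in replicate 3, against 0.733 to 0.759 CPM in the others.

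The difference with age was smaller in liver than in kidney by edgeR's interaction test for 4 ligands: Ccl7 (-4.23 on the log2 scale), Ccl9 (-2.15), Cxcl9 (-2.06) and Cxcl10 (-1.98). In kidney 4 of 4 old libraries were above every young library for each of the 4 genes.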

How the results depend on the processing

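In kidney with age the count of members called was 15 to 22 when each library was left out. Of 293 single-member results under the alternatives 263 kept the call, 30 lost it, for 7 genes, and 0 changed direction. Ccl11 lost it under most alternatives, and Cx3cl1 fell under the fold limit with DESeq2. In liver the count of 9 was 5 with a covariate for reads that fell outside genes and 0 to 11 when each library was left out. Of 125 results 53 lost the call, for all 9 genes, and 0 changed direction. In fibroblasts 8 of 75 results lost it, for Ccl9 and Cxcl14. The 4 ligands whose age difference differed between tissues became 8 with DESeq2 and 2 to 5 with each library left out, with Ccl7 and Cxcl9 lost at 2. Counts for 3C in kidney and liver were 0 throughout. The gain of promoter peaks in old kidney was 0.0 with a −log10 q of at least 5.

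With the replicate number as a block the counts were 19 in kidney and 4 in liver with age (Cxcl1, Ccr2, Cxcr2 and Ppbp), 8 in fibroblasts, 0 and 0 with 3C in kidney and liver, 21 and 27 between tissues, and 3 and 0 for the differences between tissues. Apart from young kidney and liver, correlations of same-numbered libraries ran from -0.352 to 0.382, and the number did not pair the libraries in every pair. The causes of these shifts were not tested. Depth limits members with a few reads, among them Ccl3, Ccr1 and Cxcr2.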
